A study of Mus musculus with 11 samples.

Results

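The Notch pathway was examined in mouse liver around *Neurl1b*, a ubiquitin ligase that acts on Notch ligands and that was among the genes with the largest rise when *miR-379* and *miR-541* were inhibited. The genes were taken by symbol from the table of read counts, and 9 of the 10 named genes (*Neurl1b*, *Notch2*, *Notch3*, *Notch4*, *Jag1*, *Dll4*, *Rbpj*, *Hes1* and *Heyl*) have a row among its 13669 genes. *Notch1* was not analysed here. *Neurl1b* was chosen by its rise in the same comparison that is described below, so its values are given without a test. The other genes were named for their place in the pathway, with earlier results of these data known.

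The livers came from wild-type C57BL/6J males on chow. All animals carried an adeno-associated viral vector (rAAV) of serotype 8, given in the methods as 5e11 genome copies per mouse, in which the LP1 promoter, built from hepatic control elements of human genes, restricts expression to hepatocytes. In 6 livers the virus carried the tough decoy (TuD), an RNA that sequesters *miR-379* and *miR-541* (AAV-TuD), and in 5 it carried a negative control sequence (AAV-NC), so that virus and promoter were common to both groups. Mice arrived at 6 weeks of age and were killed after a fast of 5 to 6 h, 4 weeks to 3 months after the virus, and the time of each animal is not given in the sources used here. Whole liver was sequenced from the 3′ end of polyadenylated RNA, with 8148531 to 12043959 reads on genes per liver. With this method the number of reads does not grow with the length of the transcript, so levels, given as CPM (reads of a gene per 1e6 reads of the library, the library size scaled with its TMM factor), can be set side by side between genes. At these depths 1 CPM is 7.94 to 12.4 reads.

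Notch signalling passes between neighbouring cells. A ligand of the Jagged or Delta-like family on 1 cell binds a Notch receptor on the next, a ubiquitin ligase of the Neuralized or Mind bomb family drives endocytosis of the ligand, and the pull exposes the receptor to cleavage. The released intracellular domain joins the DNA-binding protein RBPJ in the nucleus and switches genes such as those of the Hes and Hey repressors from off to on. In liver the pathway is known for the formation of bile ducts, for the zonation of sinusoidal endothelium and for the activation of stellate cells, roles that lie largely in cells other than mature hepatocytes.

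The decoy binds a pair of miRNAs, and their sequences are shown because a target is recognised through the seed, bases 2 to 8, in capitals. Both lie on chromosome 12, plus strand, of GRCm38.p6 (RefSeq), *miR-379-5p* at chr12:109709065-109709085 and *miR-541-5p* at chr12:109742422-109742446.
mmu-miR-379-5p: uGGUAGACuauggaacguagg
mmu-miR-541-5p: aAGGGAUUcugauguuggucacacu

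Complements of these seeds were searched on the sense strand of the longest 3′ UTR of protein-coding transcripts. The letters GTCTACC (for *miR-379-5p*) are in 568 of the 10927 3′ UTRs of tested genes (5.2%) and AATCCCT (for *miR-541-5p*) in 978 (8.95%). None of the 9 genes holds the first, and 3 of them hold the second. *Neurl1b* has 1 match, at base 2861 of a 3′ UTR of 4554 bases (chr17:26444645-26444674). *Notch4* has 1, at base 202 of 518 (chr17:34588176-34588205). *Heyl* has 2, at bases 1027 and 2877 of 3245 (chr4:123247646-123247675 and chr4:123249496-123249525). They are shown with their flanks, GRCm38, plus strand, the match in capitals, as these are the places in the pathway genes where the letters occur.
Neurl1b: gttgggatttcAATCCCTgcatctcaccct
Notch4: ttgatttcgagAATCCCTaaactctggaac
Heyl, first match: gcaccctggctAATCCCTggcaaagtcaag
Heyl, second match: gggcatgtgacAATCCCTggggagggcaga

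No match was found in *Notch2*, *Notch3*, *Jag1*, *Dll4*, *Rbpj* or *Hes1*. A match is a description of the letters, and binding was not tested. The paper reports that in liver this decoy also lowered host transcripts of these miRNAs and further miRNAs of the same cluster. The seeds of those further miRNAs were not searched, so the matches above do not cover them.

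*Neurl1b* (ENSMUSG00000034413, chromosome 17, 26414829 to 26446349, plus strand, GRCm38) encodes Neuralized E3 ubiquitin protein ligase 1B. Its level in the AAV-NC livers was 2.63, 2.01, 1.33, 1.5 and 3.41 CPM (livers 1, 2, 6, 7 and 8). In the AAV-TuD livers it was 4.60, 20.2, 12.2, 15.8, 14.8 and 9.58 CPM (livers 3, 4, 5, 9, 10 and 11). Every AAV-TuD liver stood above every AAV-NC liver, as for 4.11% of all genes tested. AAV-TuD 3 was nearest to the controls and AAV-TuD 4 highest. The mean was 2.18 ± 0.854 CPM (SD, n = 5) with AAV-NC and 12.9 ± 5.41 (n = 6) with AAV-TuD, a ratio of 5.92 and an edgeR log2 fold change of 2.54 (SE 0.34). These values rest on 12 to 35 reads per AAV-NC liver and 49 to 222 per AAV-TuD liver. Among the 281 genes that were higher, had a mean of at least 50 reads and did not overlap between the groups it ranked 3rd by fold change, between *Wfdc2* (log2 fold change 2.59) and *Lpl* (2.37). Among all 966 genes that were higher it ranked 20th. In whole liver, more cells of a type and more RNA per cell cannot be told apart, and this holds for all values that follow.

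The other tested ligases of Notch ligands did not pass the test. *Mib1*, the Mind bomb ligase, had a log2 fold change of -0.01 (SE 0.09, adjusted p = 0.944) at 27.9 CPM with AAV-NC, and *Mib2* one of 0.16 (SE 0.24, adjusted p = 0.739) at 4.38 CPM. With AAV-NC the level of *Neurl1b* was thus the lowest of the 3 ligases, and with AAV-TuD (12.9 CPM) it lay above *Mib2* (4.95) and below *Mib1* (27.6).

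**Figure D1:**
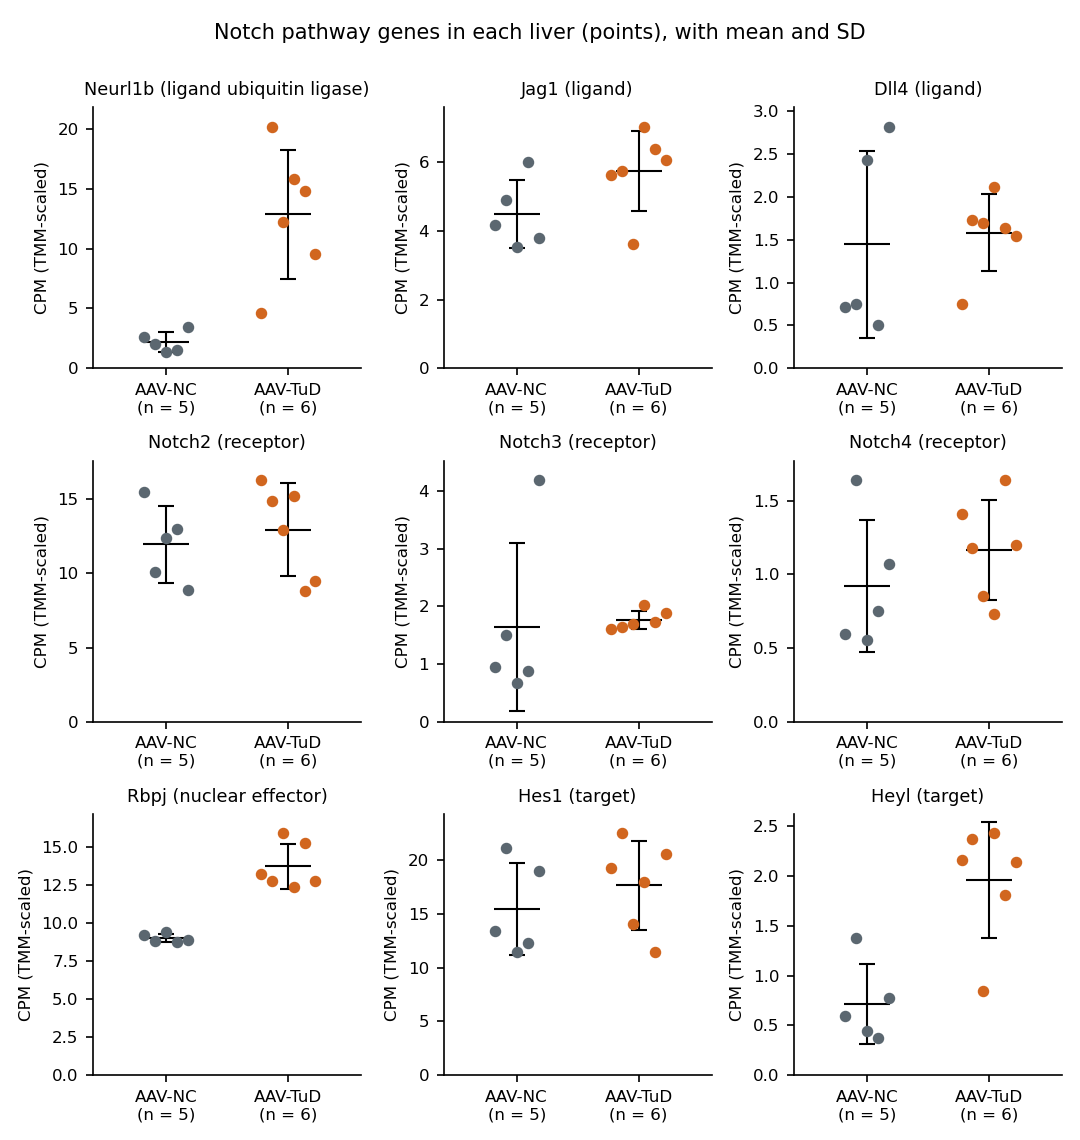
Level of the 9 Notch pathway genes (CPM on TMM-scaled library sizes, linear axes from 0) in the 5 AAV-NC livers (grey) and the 6 AAV-TuD livers (orange), 1 point per liver, with the mean (wide line) and SD (error bar). The groups do not overlap for *Neurl1b*, which was chosen by its rise, and for *Rbpj*, as for 4.11% of all genes tested in this direction. For *Heyl* 5 of 6 AAV-TuD livers lie above the controls, and the groups overlap for the ligands, the receptors and *Hes1*.

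Of the 8 other genes, 2 passed the test over all genes, and both rose with AAV-TuD. They were *Rbpj* and *Heyl*, the nuclear partner of the receptor and a transcriptional target. In the same fit 11.6% of the 13334 genes tested were past the adjusted p of 0.05, 7.24% higher and 4.33% lower with AAV-TuD. The number of such genes was 1543 and fell to 1012 without AAV-TuD 4. With 8 genes, of which *Heyl* had over 10 reads in 1 AAV-NC liver and 5 AAV-TuD livers and so entered the test through the group in which it was high, the count is a description of these genes.

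The ligands came next. *Jag1*, the Jagged ligand that portal mesenchyme presents to forming bile ducts (chromosome 2, 137081456 to 137116644, minus strand), had 4.18, 4.91, 3.54, 6.01 and 3.80 CPM in the AAV-NC livers. With AAV-TuD it had 5.63, 5.74, 3.61, 7.04, 6.38 and 6.07 CPM. AAV-TuD livers 9, 10 and 11 were above all controls and AAV-TuD 5 was among the lowest of all livers. The log2 fold change was 0.37 (SE 0.18, 95% interval -0.04 to 0.79) and did not pass the test (adjusted p = 0.212). In an alternative added after the data had been seen, which left out the 3 livers with over 25% of their reads on major urinary protein (*Mup*) genes (AAV-NC 7, AAV-TuD 3 and AAV-TuD 5), it was 0.63 and passed (adjusted p = 0.0283). *Jag1* thus changed its call with these livers, and it passed under no other of the 21 alternatives.

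*Dll4*, the Delta-like ligand of endothelial cells (chromosome 2, 119325784 to 119335962, plus strand), was close to the limit of measurement. Its AAV-NC values were 0.716, 0.755, 2.43, 0.501 and 2.82 CPM, and its AAV-TuD values 0.751, 1.73, 1.70, 2.11, 1.64 and 1.54 CPM. All 6 AAV-TuD livers lay within the range of the controls, which fell into 3 low livers and a pair of high ones, AAV-NC 6 and AAV-NC 8. The log2 fold change was 0.08 (SE 0.40, 95% interval -0.82 to 0.98, adjusted p = 0.929). At 4 to 29 reads per liver the estimate is imprecise, and any change inside this interval is compatible with it. It was 0.33 without AAV-NC 6, 0.49 without AAV-NC 8 and -0.13 without AAV-NC 7.

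No receptor passed the test. *Notch2*, the receptor whose loss in biliary precursors impairs bile duct formation (chromosome 3, 98013527 to 98150361, plus strand), was the most abundant of the 3. Its levels were 15.5, 10.1, 12.4, 13 and 8.86 CPM with AAV-NC and 16.3, 14.9, 12.9, 15.2, 8.80 and 9.49 CPM with AAV-TuD. The ranges of both groups nearly coincided, with a log2 fold change of 0.11 (SE 0.18, 95% interval -0.29 to 0.52, adjusted p = 0.746).

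*Notch3*, the receptor of mural and stellate cells (chromosome 17, 32120820 to 32166852, minus strand), had 0.955, 1.51, 0.664, 0.876 and 4.19 CPM with AAV-NC. With AAV-TuD it had 1.6, 1.64, 1.70, 2.02, 1.72 and 1.88 CPM. The AAV-TuD livers were close to each other and above 4 of the 5 controls, while AAV-NC 8 was higher than any of them. The log2 fold change was 0.06 (SE 0.38, 95% interval -0.81 to 0.93, adjusted p = 0.944). It was 0.82 without AAV-NC 8, still short of the threshold (adjusted p = 0.0612). The antisense gene *Gm17276* covers the 3′ end of *Notch3*, and as the strand setting of the counting is not given in the sources used here, reads of the pair cannot be told apart.

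*Notch4*, the receptor of endothelial cells (chromosome 17, 34564268 to 34588503, plus strand), had 0.597, 1.64, 0.553, 0.751 and 1.07 CPM in the controls, and 1.41, 1.18, 0.850, 0.729, 1.64 and 1.20 CPM with AAV-TuD. The groups overlapped over most of their range, with 5 to 19 reads per liver. The log2 fold change was 0.34 (SE 0.32, 95% interval -0.38 to 1.07, adjusted p = 0.546).

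*Rbpj* (ENSMUSG00000039191, chromosome 5, 53466152 to 53657362, plus strand) encodes the DNA-binding protein through which all Notch receptors act, and which represses the same genes when no receptor fragment is bound. It had 9.19, 8.81, 9.41, 8.76 and 8.86 CPM in the AAV-NC livers and 13.2, 12.8, 15.9, 12.4, 15.3 and 12.8 CPM in the AAV-TuD livers. The controls lay within less than 1 CPM of each other and every AAV-TuD liver was above them. The groups stood apart in this direction for 4.11% of the genes tested. The mean rose from 9.01 ± 0.281 CPM (SD, n = 5) to 13.7 ± 1.47 (n = 6), a ratio of 1.53 and a log2 fold change of 0.61 (SE 0.10, adjusted p = 0.0016). By fold change it was 716th of the 966 genes that rose, so the change was among the smaller ones.

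A processed pseudogene, *Rbpj-ps3* on chromosome 6, is 99.7% identical to 1441 bases of the *Rbpj* transcript (bases 300 to 1740 of 5485), away from the 3′ end. How reads that match several genes were counted is not given in the sources used here. *Rbpj-ps3* had reads equal to 27.1% to 47.5% of those of *Rbpj* in the same liver, and it rose as well, from 3.15 ± 0.528 to 5.67 ± 0.693 CPM (log2 fold change 0.84, SE 0.16, adjusted p = 0.00357). With its reads subtracted, in an alternative added after the data had been seen, *Rbpj* lay between 5.35 and 6.38 CPM with AAV-NC and between 6.95 and 10.7 CPM with AAV-TuD. The groups still did not overlap, and the log2 fold change was 0.46 (adjusted p = 0.0356).

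The promoter of *Rbpj* is shown because it was the only one found among these genes to hold the core letters that RBPJ itself binds. TGGGAA, or TTCCCA on the other strand, is in 8397 of 32851 RefSeq promoters of GRCm38.p6 (25.6%), taken from 250 bases before to 50 after the start. Of the 9 genes, 7 had a promoter in this set (*Hes1* and *Heyl* not), and *Rbpj* alone had matches. *Rbpj* has 2 RefSeq promoters there, and the offsets are from the start of the first. The matches lie 149 and 65 bases before it (chr5:53590185-53590214 and chr5:53590269-53590298, plus strand). The second match also lies before the start of the other promoter. Both starts are inside the gene as placed above, which begins at 53466152. The matched letters are in capitals.
Rbpj, 149 bases before the start: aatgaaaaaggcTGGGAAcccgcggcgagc
Rbpj, 65 bases before the start: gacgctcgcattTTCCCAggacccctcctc

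The targets differed between each other. *Hes1*, a repressor and the classical target of Notch in liver (chromosome 16, 30064384 to 30067796, plus strand), had 13.4, 21.1, 11.5, 12.3 and 19.0 CPM with AAV-NC. With AAV-TuD it had 19.3, 22.5, 14.1, 18, 11.5 and 20.6 CPM. The groups overlapped, with AAV-TuD 10 as low as the lowest control. The log2 fold change was 0.19 (SE 0.19, 95% interval -0.23 to 0.62, adjusted p = 0.564).

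*Heyl* (ENSMUSG00000032744, chromosome 4, 123233556 to 123249875, plus strand), a repressor of the Hey family found in mural cells, had 0.597, 1.38, 0.443, 0.376 and 0.779 CPM with AAV-NC. With AAV-TuD it had 2.16, 2.37, 0.850, 2.43, 1.81 and 2.14 CPM. Of the 6 AAV-TuD livers 5 were above all controls, and AAV-TuD 5 lay within their range. The mean rose from 0.716 ± 0.405 CPM (SD, n = 5) to 1.96 ± 0.585 (n = 6), a log2 fold change of 1.46 (SE 0.34, 95% interval 0.68 to 2.23, adjusted p = 0.0129). These levels are the lowest of the 9 genes in the controls and rest on 3 to 11 reads per AAV-NC liver and 8 to 30 per AAV-TuD liver.

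In the AAV-NC livers the order of the means was *Hes1* (15.5 CPM), *Notch2* (12), *Rbpj* (9.01), *Jag1* (4.49), *Neurl1b* (2.18), *Notch3* (1.64), *Dll4* (1.45), *Notch4* (0.922) and *Heyl* (0.716). Neighbours in this order were often within the spread of the livers. *Hes1* exceeded *Notch2* in 2 of 5 livers and *Dll4* exceeded *Notch4* in 3 of 5. *Rbpj* exceeded *Jag1*, and *Jag1* exceeded *Neurl1b*, in 5 of 5, and each of the other neighbours was the higher in 4 of 5. With AAV-TuD the mean of *Neurl1b* (12.9 CPM) was level with those of *Notch2* (12.9) and *Rbpj* (13.7), and *Heyl* (1.96) stood above *Notch3* (1.76), *Dll4* (1.58) and *Notch4* (1.17).

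The wider pathway was followed in 9 lists of genes by role, from ligands to targets, which name 76 genes besides *Neurl1b*. Of these, 57 were tested. With AAV-TuD 9 rose (15.8%, against 7.24% of all genes), 2 fell (3.51%, against 4.33%) and 46 did not pass. Of the 9, *Heyl* and *Dtx3* had over 10 reads in at most 2 AAV-NC livers and so reached the test through the group in which they were high, and the other 7 are of 52 genes. The median log2 fold change of the 57 was 0.06, and that of all genes was 0.00. Without the genes described above, 7 of 49 rose, 2 fell and the median was 0.02. Of the 9 that rose 4 were in the list of targets, where 7 of 15 genes were tested and the median was 0.82. The untested targets (*Dtx1*, *Hes5*, *Hes7*, *Hey1*, *Hey2*, *Il2ra*, *Nrarp* and *Ptcra*) had no row in the counts. That median therefore does not cover them. *Heyl* and *Notch3* of that list reached the test mainly through the AAV-TuD livers, and of the other 5 targets 3 rose. The lists upstream of the nucleus had medians from 0.01 (receptor turnover) to 0.23 (ligands).

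**Figure D2:**
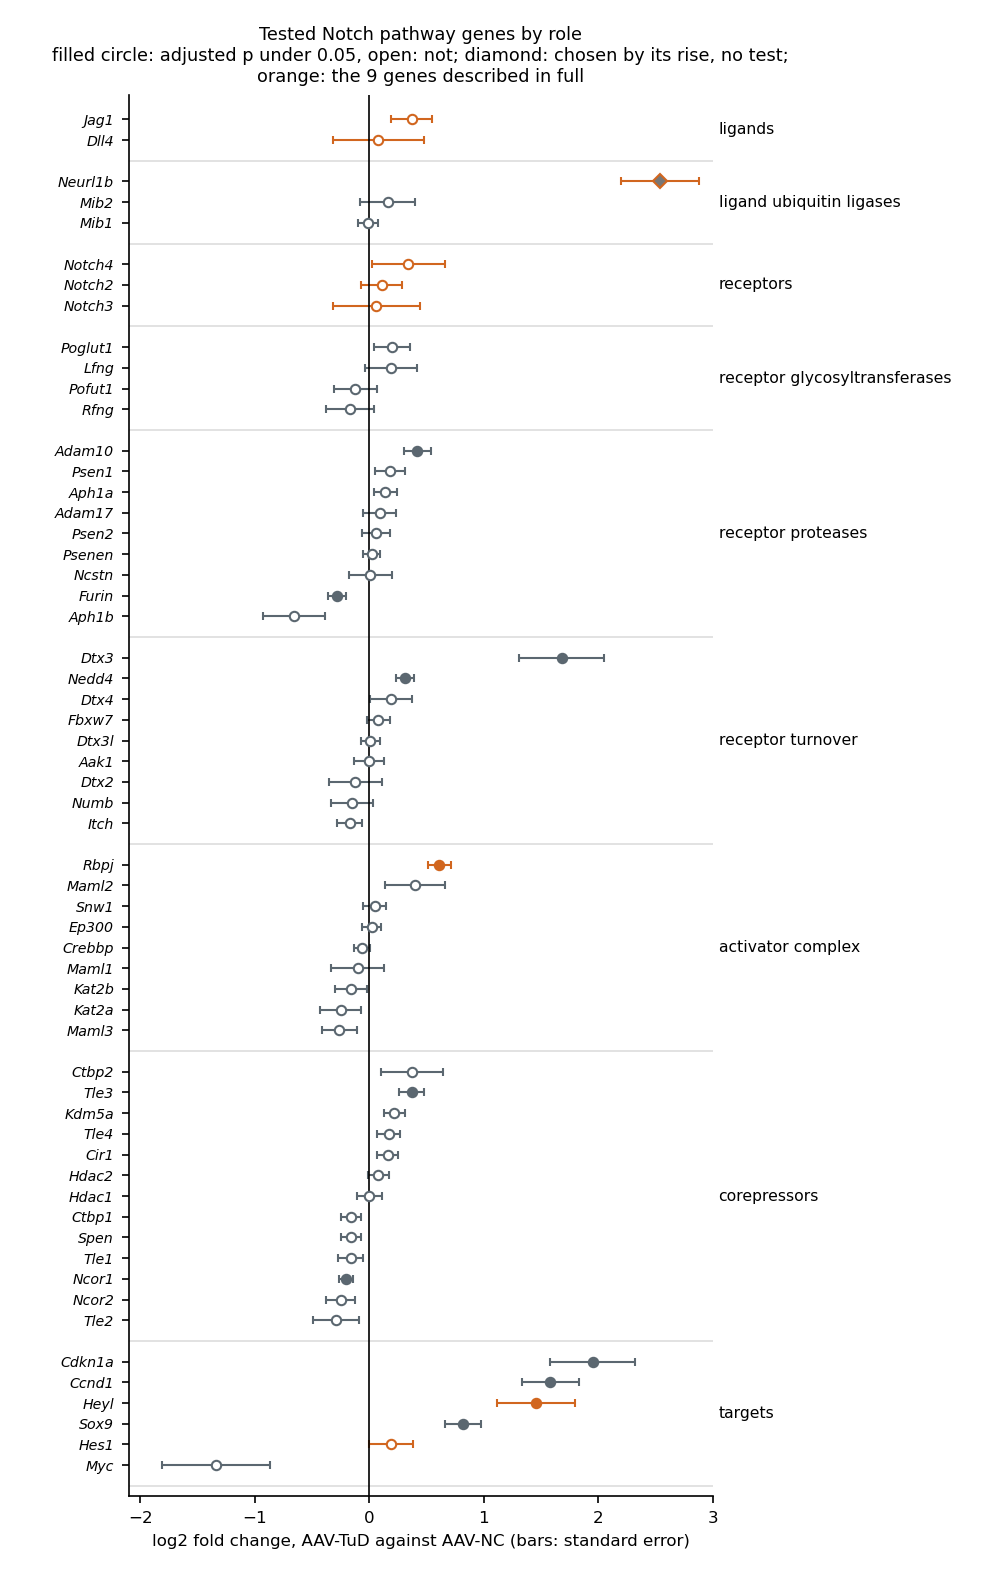
Log2 fold change of AAV-TuD against AAV-NC (x axis, bars are standard errors) for the tested genes of the Notch lists, grouped by role. Filled circles passed the adjusted p of 0.05 in edgeR, open circles did not, orange marks the 9 genes described one by one, and the diamond is *Neurl1b*, chosen by its rise. Most genes lie near 0, and the targets hold 4 of the 9 filled circles to the right of it. Of these 4, *Heyl* reached the test through the AAV-TuD livers.

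Among the targets, *Ccnd1*, a cyclin of entry into the cell cycle, had 8.52 to 16.3 CPM with AAV-NC (median 12.8) and 21.6 to 56.3 with AAV-TuD (median 33.5). Its groups did not overlap, as for 4.11% of all genes tested in this direction. The log2 fold change was 1.58 (SE 0.25, adjusted p = 0.00133). *Cdkn1a*, an inhibitor of cyclin-dependent kinases, had 3.32 to 17.0 CPM with AAV-NC and 13.1 to 61.2 with AAV-TuD, where AAV-TuD 3 was the 1 liver within the range of the controls (log2 fold change 1.95, SE 0.37, adjusted p = 0.0039). *Sox9*, a transcription factor of bile duct cells and a Notch target in the biliary lineage, had 17.0 to 31.2 CPM with AAV-NC and 33.9 to 46.9 with AAV-TuD. Its groups did not overlap either (log2 fold change 0.82, SE 0.16, adjusted p = 0.00498). All 3 answer to other pathways as well. *Myc*, the proto-oncogene, had the opposite sign (2.04 against 0.789 CPM, log2 fold change -1.34, SE 0.47) and did not pass (adjusted p = 0.0762).

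Among the receptor proteases, the genes of receptor turnover and the corepressors 4 genes rose. *Dtx3*, of the Deltex family of ubiquitin ligases, rose from 1.07 ± 0.605 to 3.48 ± 1.32 CPM (log2 fold change 1.68, SE 0.37, adjusted p = 0.00882), with 5 of 6 AAV-TuD livers above all controls. It had over 10 reads in 2 AAV-NC livers and 6 AAV-TuD livers, so like *Heyl* it entered the test through the group in which it was high. *Nedd4*, a ubiquitin ligase that can direct receptors to degradation, rose from 112 ± 7.74 to 139 ± 12.4 CPM (log2 fold change 0.31, SE 0.08, adjusted p = 0.0155). Its groups did not overlap, as for 4.11% of all genes tested in this direction. *Adam10*, the protease that makes the first cut after ligand binding, rose from 11.3 ± 0.620 to 15.1 ± 2.46 CPM (log2 fold change 0.42, SE 0.12, adjusted p = 0.031). *Tle3*, a corepressor of the Groucho family used by Hes proteins, rose from 7.75 ± 0.573 to 10.1 ± 0.957 CPM (log2 fold change 0.37, SE 0.11, adjusted p = 0.0326). The last calls were narrow. *Adam10* and *Tle3* each passed in 13 of 21 alternatives, *Adam10* was lost without any of AAV-NC 1, 6, 7 and 8 and AAV-TuD 4 and 10, and *Tle3* without any of AAV-NC 1, 2, 6 and 7 and AAV-TuD 5, 9 and 10.

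Both genes that fell did so by small amounts. *Furin*, the convertase that cuts the receptor precursor in the secretory pathway, fell from 106 ± 8.55 to 87.7 ± 7.66 CPM (log2 fold change -0.28, SE 0.08, adjusted p = 0.0305). All its AAV-TuD livers were below all controls, as in 3.28% of all genes tested. *Ncor1*, a scaffold of corepressor complexes with histone deacetylases, fell from 225 ± 14.1 to 195 ± 6.61 CPM (log2 fold change -0.20, SE 0.06, adjusted p = 0.0476). *Furin* was lost without any of AAV-NC 1, AAV-NC 7, AAV-TuD 4 and AAV-TuD 11, and *Ncor1* passed in 8 of 21 alternatives and in 1 of the 11 that leave out a liver, that without AAV-NC 1. With no factor beyond library size their log2 fold changes were -0.03 and 0.03, at a median over all genes of 0.23, and neither passed.

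No glycosyltransferase of the receptors passed (4 tested, median log2 fold change 0.04), and of the 9 tested genes of the activator complex *Rbpj* was the only one that did (median -0.06).

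*Neurl1b* was then compared with 8371 genes of a mean of at least 50 reads by the correlation of log2 CPM over the 11 livers, which share their library and its scaling in each point. The genes most like it were *Clec7a*, a receptor of macrophages and other myeloid cells for fungal glucans (Pearson r = 0.978), *Smc4*, a subunit of condensin (0.968), *Slfn9* (0.962), *Ezh2*, a histone methyltransferase of the Polycomb system (0.961), and *Ccdc34* (0.960). *Clec7a* had 7.16, 4.91, 5.31, 4.38 and 7.30 CPM in the controls, and 10.4, 48.9, 18.4, 26.6, 29.1 and 17.4 CPM with AAV-TuD. As with *Neurl1b*, AAV-TuD 3 was the lowest and AAV-TuD 4 the highest of its group. These livers also had the largest and the smallest share of *Mup* reads among AAV-TuD livers (30.9% and 8.09%). The part of that share in the correlations was not tested. Part of each of these correlations is the difference between the groups, and with group means subtracted r was 0.905 for *Clec7a* and 0.773 to 0.831 for the others.

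Within groups the genes most like *Neurl1b* were *Ptprc*, the CD45 phosphatase of leukocytes (0.926), *Ephx1*, the microsomal epoxide hydrolase (0.916), *Dusp22*, a dual-specificity phosphatase (0.912), *Gsta13*, a glutathione transferase (0.912), and *Tm6sf2*, a protein of lipoprotein secretion in hepatocytes (0.910). Their differences between the groups varied in size and sign. *Ptprc* had a log2 fold change of 0.70, *Ephx1*, *Dusp22* and *Gsta13* had 0.13, 0.21 and 0.02, and *Tm6sf2* had -0.49.

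The correlations of the other Notch genes with *Neurl1b* are given as a description. The genes above were picked as the highest of 8371, so a lower r here says nothing about the pathway. *Notch3*, *Notch4*, *Dll4* and *Heyl* also had a mean under 50 reads, where counting error can lower r. Over the 11 livers r was 0.848 for *Rbpj* and 0.762 for *Heyl*, the genes that rose, and from 0.034 (*Notch2*) to 0.472 (*Notch3*) for the other 6. With group means subtracted it was -0.003 for *Rbpj* and 0.179 for *Heyl*, and the highest were 0.468 for *Notch3* and 0.459 for *Dll4*. Among AAV-TuD livers, the 1 with least *Neurl1b* (AAV-TuD 3) had 13.2 CPM of *Rbpj* and 2.16 CPM of *Heyl*, and the 1 with most (AAV-TuD 4) had 12.8 and 2.37.

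**Figure D3:**
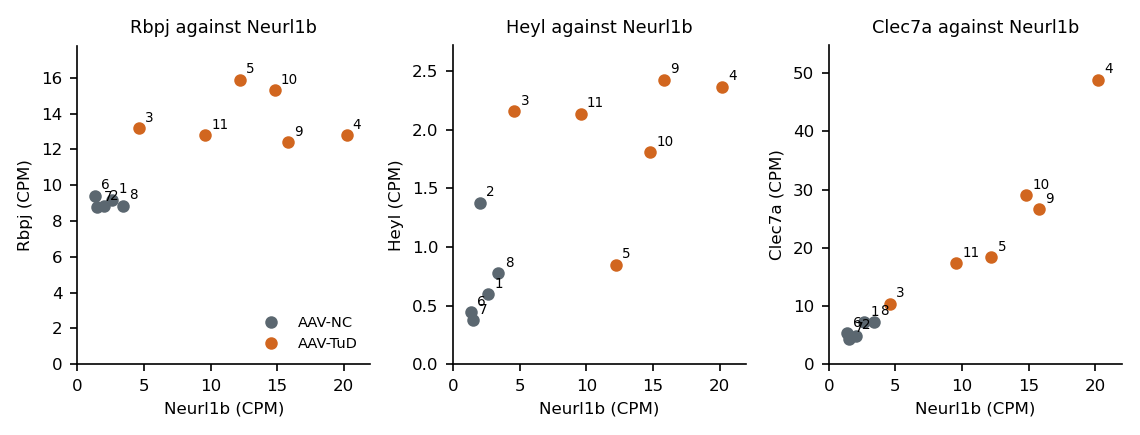
Level of *Rbpj*, *Heyl* and *Clec7a* (y axes, CPM) against that of *Neurl1b* (x axis, CPM) in the 11 livers, labelled with their replicate numbers (grey AAV-NC, orange AAV-TuD). *Rbpj* splits into a low and a high group. With group means subtracted its r with *Neurl1b* is -0.003 over the 11 livers pooled, which gives no slope for either group alone. *Heyl* of AAV-TuD 5 falls back among the controls. *Clec7a* is mostly higher where *Neurl1b* is higher along the AAV-TuD livers.

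Markers of the cell types that use the pathway were read in the same livers. Counts of markers that rose are to be read against the 7.24% of all genes that did. Of the tested cholangiocyte markers 6 of 7 rose, of which *Epcam*, *Krt19* and *Prom1* had over 10 reads in at most 1 AAV-NC liver and reached the test through the AAV-TuD livers, so that 3 of the other 4 rose. The sum of the 7 was 89.9 to 128 CPM with AAV-NC and 157 to 196 with AAV-TuD. Most of this sum came from *Cdh1* alone in both groups. The leading ones were *Cdh1* (81.1 and 106 CPM), *Sox9* (22.9 and 40.1), which is also in the list of Notch targets, and *Spp1* (5.08 and 23.1), and *Krt7*, *Cldn7* and *Tspan8* did not reach the filter on reads. Stellate cell markers rose in 8 of 14 (median 0.70, sum 248 to 328 against 418 to 546 CPM), led by *Dcn* (150 and 259 CPM), with *Ecm1* (39.2 and 52.4) and *Rgs5* (25.5 and 38.5) short of the threshold. Kupffer cell markers rose in 8 of 12 (median 0.87, sum 132 to 194 against 149 to 414 CPM), led by *Csf1r* (24.7 and 48.6), *C1qb* (21.9 and 43.1) and *Cd5l* (19.9 and 39.1), and AAV-TuD 3, the liver with least *Neurl1b* of its group, had the 149.

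Of the sinusoidal endothelial markers 1 of 13 rose (7.69%, close to the 7.24% of all genes), *Maf* (127 and 154 CPM), while *Ptprb* (109 and 110) and *Kdr* (53.3 and 52.3) did not pass, and the sum was 458 to 524 against 489 to 538 CPM. Of the vascular endothelial markers 1 of 10 rose, *Eng* (13.4 and 17.7 CPM), while *Egfl7* (15.2 and 17.3) and *Cdh5* (11.4 and 14.6) did not pass. Their sum was 65.5 to 70.2 against 70.8 to 82.3 CPM. Of the markers of smooth muscle and portal fibroblasts 2 of 10 were tested, and *Eln* (0.859 and 2.05 CPM), with over 10 reads in 1 AAV-NC liver and 5 AAV-TuD livers, rose while *Myh11* (1.36 and 1.68) did not pass, with a sum of 1.5 to 3.21 against 2.91 to 4.56 CPM. The livers were hepatocyte tissue by *Alb* (21100 and 28000 CPM), *Apoa1* (6740 and 5860) and *Ttr* (5090 and 5410), none of which passed. Of the 11 hepatocyte markers tested 1 rose (9.09%, against 7.24% of all genes) and 3 fell (27.3%, against 4.33%). Their sum, with *Alb* as its largest part, was 41300 to 48400 against 50300 to 56100 CPM and did not overlap between the groups either. The part of cell numbers in the values of *Neurl1b*, *Rbpj*, *Heyl*, *Sox9* and the other genes was not tested.

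**Figure D4:**
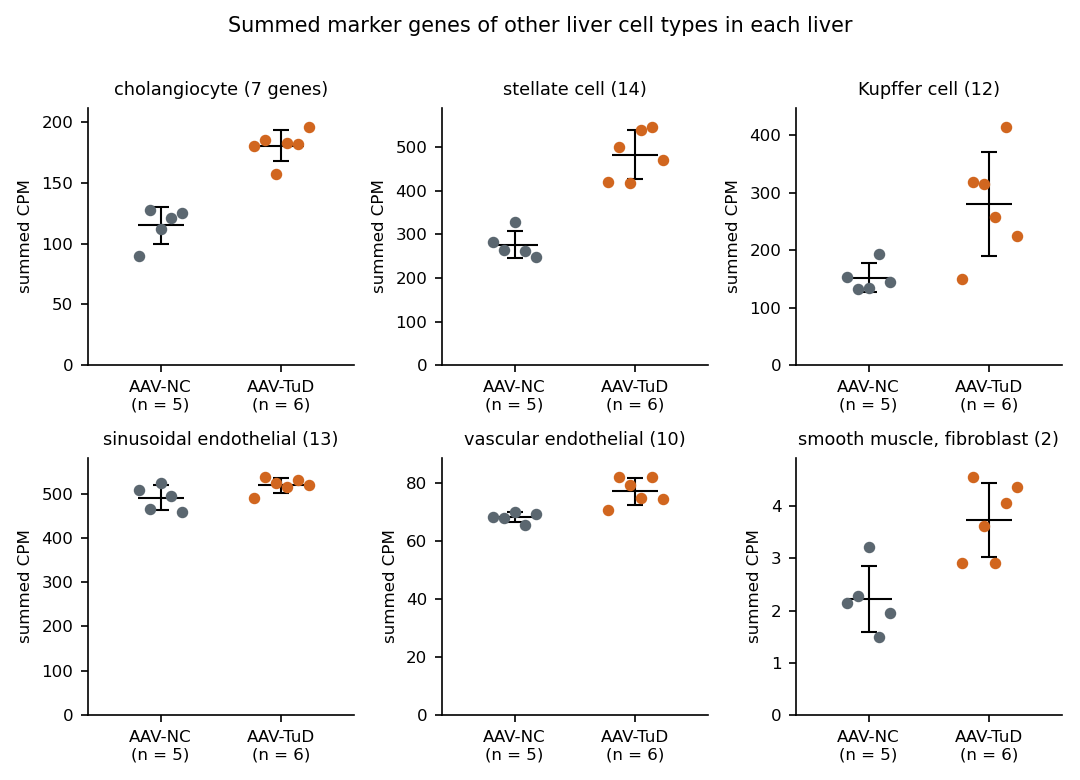
Summed level (CPM, linear axes from 0) of the tested marker genes of 6 cell types in each liver (grey AAV-NC, orange AAV-TuD), with mean and SD. Most of the cholangiocyte sum is *Cdh1*. Hepatocyte sums are not shown. The sums of cholangiocyte (157 to 196 against 89.9 to 128 CPM) and stellate cell markers (418 to 546 against 248 to 328) do not overlap between the groups, nor do the closer vascular endothelial sums (70.8 to 82.3 against 65.5 to 70.2), those of Kupffer cells overlap in AAV-TuD 3, and sinusoidal endothelial sums overlap over most of their range.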

How the data were processed

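Liver RNA of 5 AAV-NC and 6 AAV-TuD animals was sequenced as QuantSeq 3′ libraries from 500 ng RNA. Per the methods, the authors trimmed reads with BBDuk, aligned them with STAR (2.5.3a in the submitters' processing notes, which also list DESeq2 1.38.3) to GRCm38 and assigned them to genes with Rsubread, and the resulting counts were deposited without normalization. The annotation, the strand setting and the handling of reads matching several genes are not given in the sources used here. Each label numbers a sample and no batch is named, so p values measure the spread between these samples. Totals were 8148531 to 12043959 reads, TMM factors 0.667 to 1.24 and the share of *Mup* reads 8.09% to 38.6%. Counting error is large for genes near 1 CPM.

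Genes with over 10 reads in at least 5 livers (13334 of 13669) were tested in R 4.3.3 with edgeR 4.0.16 (quasi-likelihood test), TMM factors, no covariate, and Benjamini-Hochberg adjustment over all genes, at an adjusted p under 0.05. Log2 CPM used a prior count of 2, and 95% intervals used t with 9 degrees of freedom. The script was tested on simulated data. DESeq2 1.42.0, limma 3.58.1 (voom with quality weights), other scalings and filters, removal of *Mup* genes and each liver left out were the alternatives, and subtraction of *Rbpj-ps3* and removal of the 3 livers with most *Mup* reads were chosen after seeing the data. Positions and 3′ UTRs are from GENCODE M21 (GRCm38), miRNAs and promoters from RefSeq (GRCm38.p6), and similar transcripts were searched with blastn 2.17.0.

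The members and lists were chosen with earlier results of these data known. Genes were named by rule: the 10 members, list genes past the threshold, the 5 genes most correlated with *Neurl1b* over all livers and the 5 within groups, and the 3 most abundant tested markers of each cell type. *Mib1*, *Mib2*, *Myc*, *Wfdc2*, *Lpl*, *Epcam*, *Krt19*, *Prom1*, *Krt7*, *Cldn7*, *Tspan8*, *Rbpj-ps3* and *Gm17276* were named after their values were seen.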

Additional observations from a re-analysis of the deposited data

Results flagged for a closer look

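For each of the 9 pathway genes and the 9 other list genes that passed the threshold, the highest and lowest liver of each group were set against the rest of the group by Dixon's ratio, its distance from the next liver as a part of the group's range. Of 36 groups 3 exceeded the 95% critical value, where chance gives about 1 in 20, or 1.8. *Notch3* was 4.19 CPM in AAV-NC 8 against 1.51 in the next and 0.664 in the lowest control (ratio 0.76). *Furin* was 121 CPM in AAV-NC 7, the liver with the largest share of *Mup* reads (38.6%), against 104 in the next and 99.8 in the lowest (0.789). *Nedd4* was 162 CPM in AAV-TuD 3, which had 30.9% of reads on *Mup* genes, against 139 in the next and 127 in the lowest (0.647).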

How the results depend on the processing

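*Rbpj* and *Heyl* passed the threshold in 21 of 21 alternatives, with log2 fold changes of 0.46 to 0.84 and 1.31 to 1.80, as did *Sox9*, *Ccnd1*, *Cdkn1a*, *Dtx3* and *Nedd4*, and *Neurl1b* lay between 2.37 and 2.82. *Heyl* and *Dtx3* reached the test through the AAV-TuD livers, in which they were high, so that their calls in these alternatives are a description. When single livers were left out, the genes called in all were 1012 to 1829 (1543 with all livers) and DESeq2 called 1811. List genes called lower, 2 in the main analysis, were 3 with DESeq2, 1 with upper-quartile factors, 0 with library size alone, 0 without the 3 livers rich in *Mup* reads, and 0 to 1 with a liver left out, while list genes called higher were 7 to 9 in all alternatives. *Ncor1* turned to 0.03 with library size alone, which moved the median of all genes to 0.23 and the share of calls that were higher from 62.6% to 95.1%. *Notch3* turned to -0.05 without the livers rich in *Mup* reads and ranged from -0.14 to 0.82 with a liver left out, and *Dll4* from -0.13 to 0.49. Beyond fewer livers in these fits, the cause was not tested. *Notch3*, *Notch4*, *Dll4* and *Heyl* had 3 to 43 reads per liver, which limits what their values can show. No paired analysis was possible because the groups share no replicate number.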
